A study of Saccharomyces cerevisiae with 91 samples.

Results

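The genes described here encode the proteasome of Saccharomyces cerevisiae and a few of its partners. They are the 35 transcripts, of 4963 in the deposited table of nucleosome positions, whose gene name is RPN, RPT, PRE or PUP with a number, or is SCL1, UMP1 or ECM29. All 35 are open reading frames (ORFs), and the other 4501 ORF rows of the table serve as the background throughout. The series comprises 91 libraries, nearly all of them chromatin reconstituted in vitro, with or without the ATP-dependent remodeler INO80. The positions used here carry no values of these reconstituted samples. By the study's methods they were called from a single MNase-seq library of living cells, the laboratory wild-type strain BY4741 grown to log phase in YPD medium without any added agent or remodeler mutation. MNase cuts the linker DNA between nucleosomes, so that the protected fragments mark the dyad, the midpoint of nucleosomal DNA. With 1 library there is no replicate error, and the table gives neither read depth nor peak height, so each position is a single value of unknown counting error.

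The proteasome degrades proteins that carry ubiquitin chains. Its core particle is a barrel of stacked rings of alpha and beta subunits with the proteolytic sites inside, and its regulatory particle, made of a base with ATPases and a lid, binds, deubiquitinates, unfolds and feeds in the substrate. In yeast the genes are transcribed in concert by Rpn4, a zinc finger activator that is itself a proteasome substrate and that binds the proteasome-associated control element (PACE). Yeast promoters typically hold a nucleosome-depleted region (NDR) flanked by the well positioned −1 and +1 nucleosomes, with the transcription start site (TSS) just inside the +1 nucleosome.

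The name rule gave 14 core particle genes, namely 7 of the alpha ring and 7 of the beta ring, and 17 regulatory particle genes, namely 9 of the base and 8 of the lid. The remaining 4 do not encode subunits. RPN4 encodes the activator, RPN14 a chaperone of base assembly, UMP1 a chaperone of core assembly, and ECM29 a protein that holds core and regulatory particle together. Of the 6 base ATPases, RPT2 to RPT6 are members. RPT1 is missing from the list only because its row carries the joint name of RPT1 and an overlapping ORF, so its values are given apart. SEM1, a small lid subunit, does not match the names either and is described with the pathway.

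PACE was searched as the 9 bases GGTGGCAAA on both strands, with the whole motif within 400 bp upstream of the +1 dyad. Of the 35 members, 26 held an exact motif (74.3%, 95% Wilson interval 57.9 to 85.8%), each of them once, compared with 1.02% of 4493 other ORFs with a +1 dyad. By particle, 11 of 14 core genes, 14 of 17 regulatory genes and 1 of the 4 remaining genes had one. The letters of PACE were taken from earlier knowledge of this element of proteasome genes and were not derived from these data. The share is therefore no independent finding of an enrichment. The sites are shown because most members carry one. Each is printed 5′ to 3′ on the strand that reads GGTGGCAAA, from the reference sequence of build R64, with the motif in capitals and 10 flanking bases on either side. A match is a description of the sequence and not evidence of binding.

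In the alpha ring, 6 of 7 genes had an exact PACE. SCL1, PRE9, PRE6, PUP2, PRE8 and PRE10 encode structural subunits that form the outer rings and the gate of the barrel.
SCL1 (chrVII:475337-475365, plus strand): ctatccttacGGTGGCAAAttggtgtgtg
PRE8 (chrXIII:86841-86869, minus strand): agcttattaaGGTGGCAAAattgtccccg
PRE9 (chrVII:761223-761251, plus strand): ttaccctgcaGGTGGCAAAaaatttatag
PRE6 (chrXV:255218-255246, minus strand): tttcccttccGGTGGCAAAagaatcttcg
PUP2 (chrVII:999226-999254, minus strand): aaccaagaccGGTGGCAAAagagtaacct
PRE10 (chrXV:1018856-1018884, minus strand): cctctaaatcGGTGGCAAAaataagaaag
The motif centre lay 126 bp upstream of the +1 dyad in SCL1, 133 bp in PRE8 and 132 bp in PRE9. It lay closer to the nucleosome in the other three, at 103 bp in PRE6, 94 bp in PUP2 and 107 bp in PRE10.

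In the beta ring, 5 of 7 genes had an exact PACE upstream of the +1 dyad. PRE3 and PRE2 encode the catalytic subunits with caspase-like and chymotrypsin-like activity, and PRE1, PRE4 and PUP3 encode beta subunits without catalytic activity.
PRE1 (chrV:177683-177711, plus strand): aaatctttacGGTGGCAAAaaataaagaa
PRE2 (chrXVI:732184-732212, plus strand): acagcaaaagGGTGGCAAAacgaagaata
PRE3 (chrX:435035-435063, plus strand): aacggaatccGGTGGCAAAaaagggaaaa
PRE4 (chrVI:249959-249987, plus strand): acgtatttaaGGTGGCAAAttctaaacca
PUP3 (chrV:349511-349539, minus strand): tggcactgccGGTGGCAAAaaagtgcaaa
PRE1 and PRE3 were nearly alike, with motif centres 118 and 117 bp upstream of the +1 dyad. The distances were 126 bp in PRE2, 99 bp in PRE4 and 136 bp in PUP3.

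In the base of the regulatory particle, 7 of 9 genes had an exact PACE. RPT2 to RPT6 encode ATPases of the ring that unfolds substrates, and RPN1 and RPN2 the large scaffold subunits.
RPT2 (chrIV:437906-437934, plus strand): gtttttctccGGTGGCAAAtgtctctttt
RPT3 (chrIV:1261495-1261523, plus strand): ctgaaagtaaGGTGGCAAAatagtaaatc
RPT4 (chrXV:813802-813830, plus strand): ctttcccttcGGTGGCAAAttccactatt
RPT5 (chrXV:544855-544883, plus strand): gccaatatgtGGTGGCAAAaatgaattaa
RPT6 (chrVII:411352-411380, minus strand): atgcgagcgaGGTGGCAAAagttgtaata
RPN1 (chrVIII:164838-164866, minus strand): tgtgttttacGGTGGCAAAaggcgagcac
RPN2 (chrIX:220801-220829, minus strand): atttattttcGGTGGCAAAactggataca
These genes gave both ends of the range, with RPT2 at 139 bp and RPT6 at 86 bp from the +1 dyad. RPT3 lay at 125 bp, RPT4 at 115 bp, RPT5 at 123 bp, RPN1 at 133 bp and RPN2 at 111 bp.

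In the lid, 7 of 8 genes had an exact PACE. RPN11 encodes the deubiquitinating enzyme, and RPN3, RPN5, RPN6, RPN7, RPN9 and RPN12 encode subunits of the horseshoe-shaped scaffold around it.
RPN3 (chrV:196843-196871, minus strand): ctctttcttgGGTGGCAAAtgtttttcgt
RPN5 (chrIV:190776-190804, plus strand): ttgacttttcGGTGGCAAAatgcaaaggg
RPN6 (chrIV:286790-286818, minus strand): tggttccaagGGTGGCAAAtgttggtaga
RPN7 (chrXVI:742290-742318, minus strand): atcctcaatgGGTGGCAAActtaacttat
RPN9 (chrIV:1322086-1322114, plus strand): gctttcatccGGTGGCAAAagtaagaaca
RPN11 (chrVI:153259-153287, plus strand): ggacctccaaGGTGGCAAAttcacaagaa
RPN12 (chrVI:252398-252426, minus strand): aatttcaatgGGTGGCAAAtaatgtgtag
RPN11 had its motif centre 138 bp and RPN5 131 bp upstream of the +1 dyad, whereas RPN7 had it at 92 bp. The others were at 105 bp in RPN3, 103 bp in RPN6, 124 bp in RPN9 and 109 bp in RPN12. Among the genes that encode no subunit, ECM29 alone had an exact motif, at 132 bp.
ECM29 (chrVIII:39943-39971, plus strand): gccttttcttGGTGGCAAAaaaaaggtac

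Most of the remaining subunit genes carried a near match. With at most 1 mismatch to GGTGGCAAA, 31 of 35 members had a motif in the same window, including all 17 regulatory genes and 13 of 14 core genes, compared with 9.68% of the other ORFs. Substitutions are counted from position 1 at the 5′ end of the motif. PRE5, an alpha subunit, PUP1, the trypsin-like catalytic subunit, and RPN8, the inactive partner of the deubiquitinase, all had G1A. RPN10 and RPN13, the ubiquitin receptors of the base, both had A7G.
PRE5 (chrXIII:901552-901580, plus strand): cctattatagAGTGGCAAAattaaaaatt
PUP1 (chrXV:631891-631919, minus strand): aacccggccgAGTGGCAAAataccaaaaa
RPN8 (chrXV:817085-817113, minus strand): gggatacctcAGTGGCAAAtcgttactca
RPN10 (chrVIII:498968-498996, minus strand): tgtaaattccGGTGGCGAAaacccgcctg
RPN13 (chrXII:965656-965684, minus strand): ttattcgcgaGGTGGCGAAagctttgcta
The centres of these 5 near matches lay 129, 122, 92, 127 and 118 bp upstream of the +1 dyad, inside the range of the exact sites. RPN10 and RPN13 kept the first 6 bases GGTGGC, whereas the G1A sites did not.

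PRE7, a beta subunit without catalytic activity, was the only subunit gene without a match in the window, and its exact PACE lay on the other side of the called nucleosome.
PRE7 (chrII:141150-141178, plus strand): aaactcaaagGGTGGCAAAaacaagcggt
The motif lay 83 bp upstream of the start codon but 177 bp downstream of the TSS and 175 bp downstream of the +1 dyad in the table. PRE7 also had the longest distance from TSS to start codon among the members, 260 bp against a median of 61 bp. When the window was laid 400 bp upstream of the start codon, a choice made after this site was seen, 27 of 35 members and 1.01% of other ORFs had an exact PACE. The TSS and +1 distances rest on the TSS of the table, and whether it is the main TSS of PRE7 was not tested. With a near match upstream of the +1 dyad or an exact PACE upstream of the start codon, a rule that joins both windows and was also set after this site was seen, 31 of 31 subunit genes and 9.64% of other ORFs had a motif. RPN4, RPN14 and UMP1 had none in the window upstream of their +1 dyad, which says only that these letters are not in that stretch.

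Across the 26 members the PACE centre lay 86 to 139 bp upstream of the +1 dyad, with a median of 120.5 bp (quartiles 105.5 and 131.8 bp, SD 15.4 bp over genes). In the 46 other ORFs with a motif the same distance ran from 28 to 367 bp, with a median of 171.5 bp and an SD of 85.5 bp. Core and regulatory genes did not separate, with medians of 118 bp (n = 11) and 119 bp (n = 14). The motif read in the direction of transcription in 19 members and in the opposite direction in 7.

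**Figure D1:**
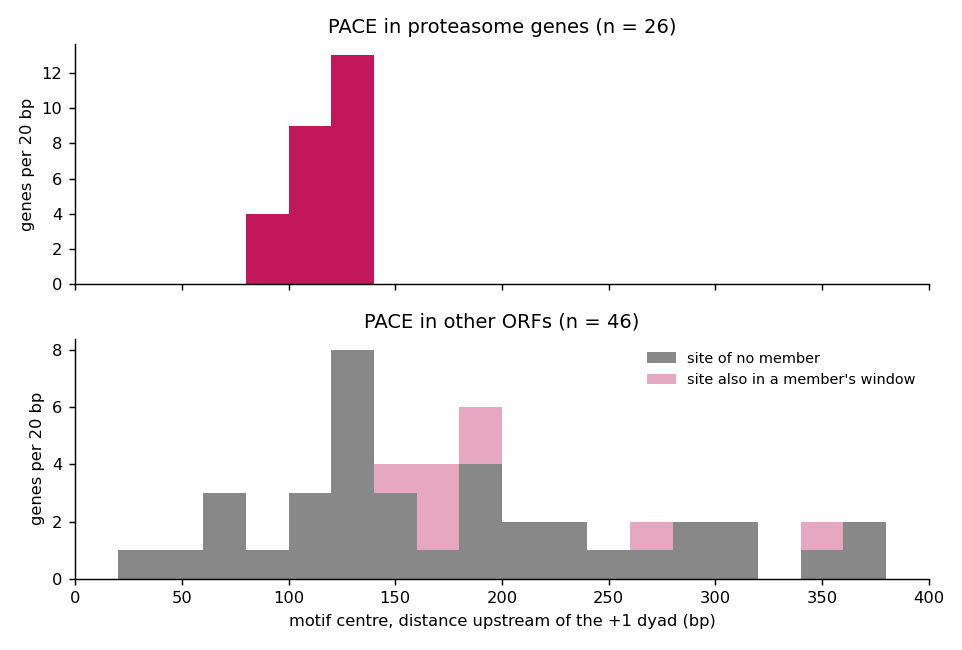
Histograms of the distance from the centre of the nearest PACE motif to the +1 dyad (bp upstream, bins of 20 bp), for proteasome genes in the upper panel and other ORFs in the lower panel. All 26 members fall between 86 and 139 bp, whereas the 46 other ORFs spread from 28 to 367 bp, and the pale bars are sites that also lie in the window of a member.

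How narrow this spacing appeared depended on the point it was measured from. All values are for the 26 members whose motif lies upstream of the first +1 dyad, a selection that can favor that reference. It leaves out PRE7, whose motif lay 175 bp downstream of the +1 dyad and 177 bp downstream of the TSS. The same motif lay 83 bp upstream of the start codon of PRE7, within the 80 to 179 bp of the 26. Measured from the TSS, the motif lay at a median of 57.5 bp upstream with an SD of 27.2 bp, and measured from the start codon at 118 bp with an SD of 25.5 bp. By the interquartile range the +1 dyad and the TSS were close, at 26.2 and 28.8 bp, and the start codon stood at 34.75 bp. Measured from the second column of +1 dyads in the table, whose origin is unknown, the SD was 31.2 bp. This was wider than from the TSS or the start codon. By the interquartile range, 21.25 bp, the second column was the narrowest of these references. From it the motif lay between 11 bp downstream and 151 bp upstream. The −1 dyad had the largest SD of these references, 69.6 bp. PRE10 contributed most to the spread around the TSS, since its motif lay 35 bp downstream of the annotated TSS, and without it the SD fell to 19.9 bp around the TSS and stood at 15.6 bp around the +1 dyad and 19.4 bp around the second +1 column.

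The motif lay in linker DNA in nearly all of these promoters. In 24 of 26 members the whole motif fell between the 147 bp cores centred on the −1 and +1 dyads, compared with 25 of 46 other ORFs with a motif. The edge of the motif was 8 to 61 bp from the edge of the +1 core, with a median of 42.5 bp. The exceptions were the members with the shortest NDRs. In PRE2 the centre lay 34 bp downstream of the −1 dyad and thus within the −1 core, and in PUP3 it lay 16 bp upstream of the −1 dyad.

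The plot of all promoters aligned on the +1 dyad shows this arrangement gene by gene, and 3 stretches of promoter sequence show it at base resolution. They run from upstream of the motif to the base before the TSS on the coding strand, and capitals mark GGTGGCAAA and, in RPN9 and RPN5, the Reb1 motif TTACCC.
PRE1 (chrV:177661-177760, plus strand): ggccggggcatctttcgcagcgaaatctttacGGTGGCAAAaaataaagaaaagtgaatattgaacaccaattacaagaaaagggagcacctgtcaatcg
RPN9 (chrIV:1322062-1322171, plus strand): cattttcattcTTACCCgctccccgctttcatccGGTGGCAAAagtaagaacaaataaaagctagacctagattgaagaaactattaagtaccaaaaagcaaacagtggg
RPN5 (chrIV:190741-190870, plus strand): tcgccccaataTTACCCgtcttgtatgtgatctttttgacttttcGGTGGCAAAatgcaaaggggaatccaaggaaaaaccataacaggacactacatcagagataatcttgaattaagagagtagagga

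**Figure D2:**
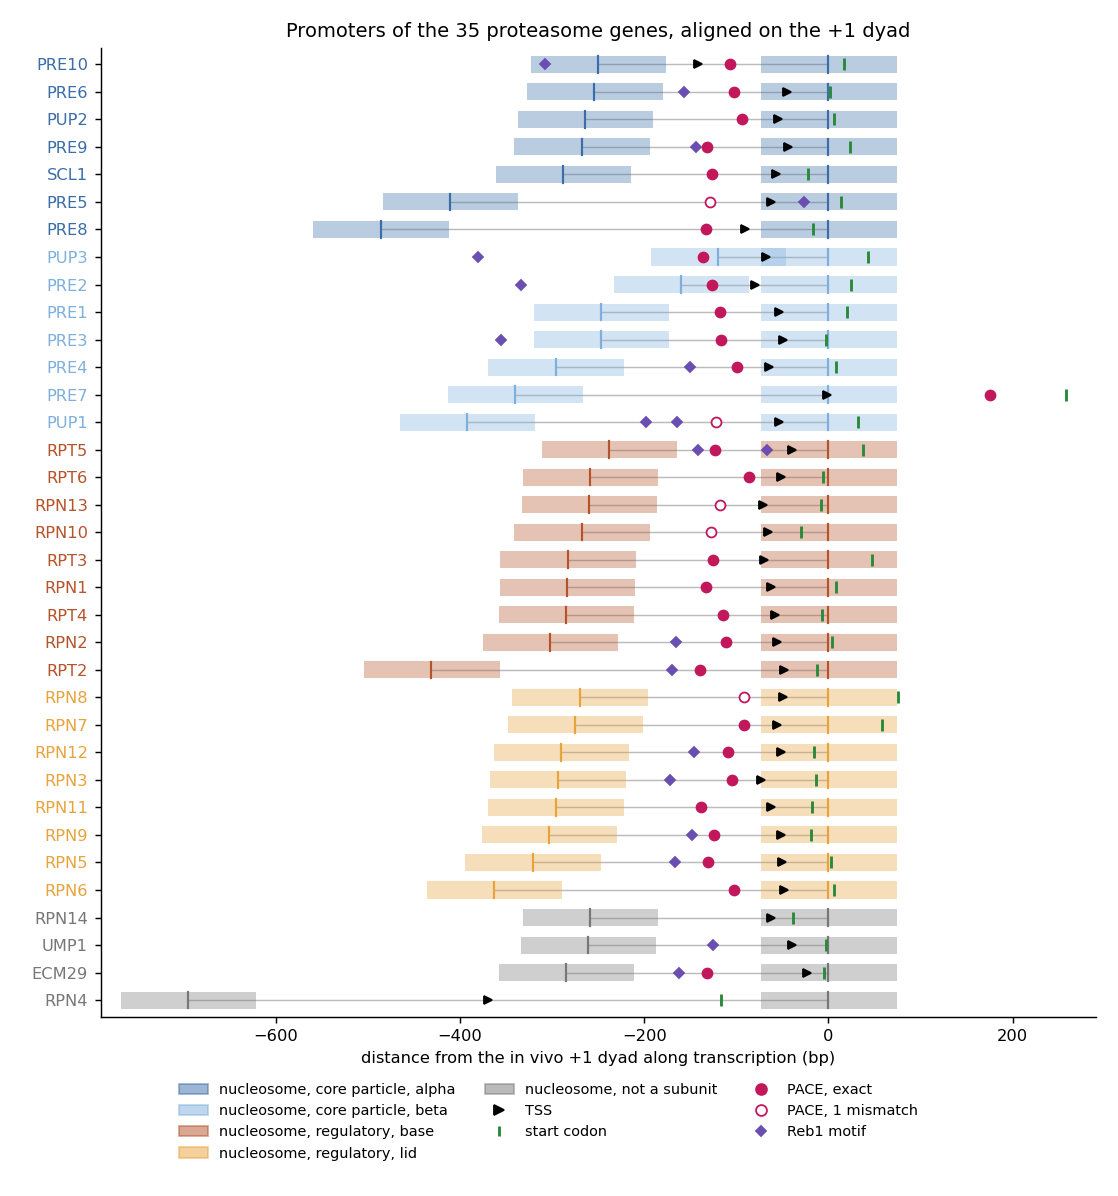
Each line is 1 of the 35 promoters, drawn to scale in bp from the +1 dyad at 0, with boxes for the 147 bp nucleosome cores, a tick in each box for the dyad, arrowheads for the TSS, green ticks for the start codon and symbols for PACE and Reb1 motifs. Filled PACE symbols line up 86 to 139 bp upstream of the +1 dyad, except in PRE7, where the motif lies 175 bp downstream of it.

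The 16 nuclear chromosomes hold 189 PACE motifs on both strands, of which 26 lay in the windows of members, 42 in those of other ORFs and 129 in no window of an ORF row. Of the 42, 8 were sites of members seen from the other side of a divergent promoter. In each of these 8 pairs the motif was nearer to the +1 dyad of the proteasome gene. RPN6 had it at 103 bp and its neighbor PMT1 at 260 bp, PRE2 at 126 bp and RPL11A at 353 bp, and RPT6 at 86 bp and ALG13 at 173 bp. The closest pair was RPN11 at 138 bp and YPI1 at 158 bp.

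Reb1 is a general regulatory factor that binds promoter DNA and acts as a barrier to nucleosomes. Its motif TTACCC, on either strand in the same 400 bp, was present in 18 of 35 members (51.4%, 95% Wilson interval 35.6 to 67.0%) and in 22.5% of other ORFs. It occurred in 9 of 14 core genes and 7 of 17 regulatory genes. The distance of the nearest motif centre from the +1 dyad had a median of 163.5 bp in members (quartiles 146.2 and 171 bp) and 161.5 bp in other ORFs (quartiles 139.5 and 226.5 bp).

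Where both motifs were present, the nearest Reb1 motif mostly lay farther from the gene than PACE. In other ORFs with a Reb1 motif the lower quartile of its distance, 139.5 bp, also exceeded the farthest PACE of a member, 139 bp. Such an order is therefore not particular to these promoters. In 14 of 15 members with both, the nearest TTACCC was upstream of the PACE, by 11.5 to 66.5 bp in 10 of them and by over 200 bp in PRE10, PRE2, PRE3 and PUP3. In the latter 4 the Reb1 motif was also upstream of the −1 dyad. RPN9 and RPN5, printed above, had it 24.5 and 35.5 bp upstream of the PACE, and PRE9 had the shortest gap of 11.5 bp. RPT5 was the exception, with its nearest TTACCC 56.5 bp downstream of the PACE and a further one 18.5 bp upstream. A Reb1 motif without an exact PACE occurred in PRE5, PUP1 and UMP1.

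NDR length, the deposited distance from the −1 to the +1 dyad, had a median of 284 bp in the 35 members (quartiles 259.5 and 302.5 bp) and 265 bp in 4450 other ORFs (quartiles 227.2 and 298 bp). Lengths above the median of the other ORFs were found in 23 of 35 members (Wilson interval 49.2 to 79.2%). The share in the other ORFs, 49.8%, lies within this interval. Short NDRs were few, since 2 of 35 members lay below the lower quartile, beside 25.0% of the other ORFs. At the long end the members were close to the background, with 10 of 35 above the upper quartile, beside 24.9%. No test was made of these counts, because the dyads come from 1 library and genes are not replicates of it.

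The regulatory particle genes were the more uniform group. Their NDR lengths had a median of 285 bp and ranged from 238 to 431 bp (SD 44.6 bp, n = 17), and 14 of 17 were above the median of the other ORFs. All 8 lid genes of the name rule were above it, from RPN8 at 270 bp to RPN6 at 363 bp. SEM1, the lid subunit gene outside the rule, was below it with 211 bp. With the second +1 column RPN7 had 260 bp, beside a median of 261 bp in other ORFs. Core particle genes had a median of 266 bp and ranged from 120 to 486 bp (SD 95.9 bp, n = 14), and 7 of 14 were above it. The medians were 268 bp for the alpha ring, 247 bp for the beta ring, 283 bp for the base and 295 bp for the lid. The core and regulatory ranges overlap, and with 14 and 17 genes the order-statistic intervals of their medians, 247 to 392 bp and 270 to 302 bp, overlap as well.

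**Figure D3:**
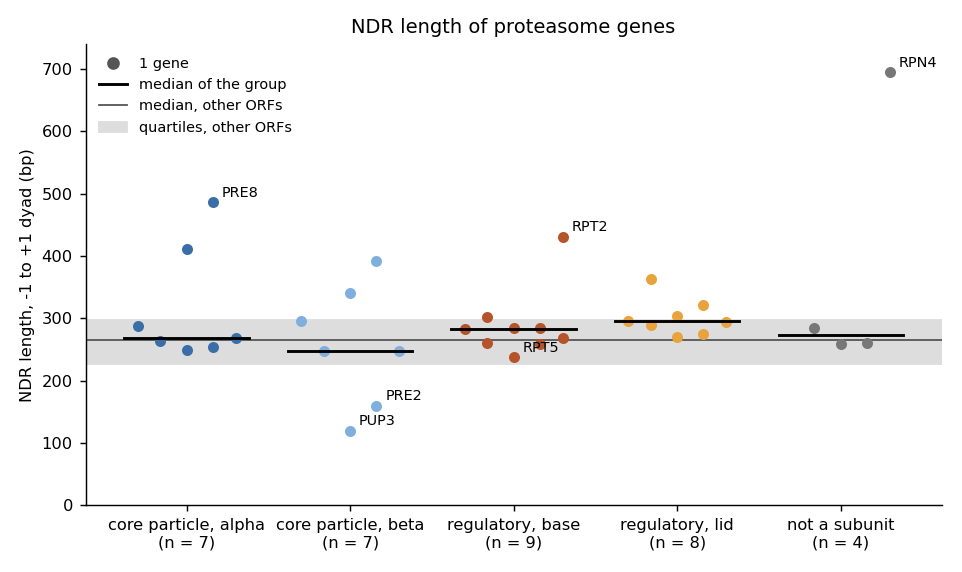
Points show the NDR length (bp, −1 to +1 dyad) of each of the 35 genes by part of the proteasome, thick lines the median of each group, and the grey line and band the median of 265 bp and the quartiles of the other ORFs. All 8 lid genes of the name rule lie above the grey line, and the core particle genes spread from 120 bp in PUP3 to 486 bp in PRE8.

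The longest NDRs belonged to RPN4 with 695 bp, PRE8 with 486 bp and RPT2 with 431 bp. PRE8, an alpha subunit gene, had its −1 dyad 395 bp upstream of the TSS and a GC content of 26.1% between the dyads, the lowest of all members. RPT2 had its −1 dyad 383 bp upstream of the TSS. The PACE centre lay 133 bp upstream of the +1 dyad in PRE8 and 139 bp in RPT2, at the far end of the range of the members.

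The shortest NDRs were those of PUP3 with 120 bp, PRE2 with 160 bp and RPT5 with 238 bp. By the study's methods, values within 120 bp of a picked peak were removed, and the length of PUP3 equals that spacing. The deposited lengths of other ORFs nevertheless go down to 0 bp, so 120 bp is not their lower limit. Cores of 147 bp around the dyads of PUP3 would overlap by 27 bp, and those of PRE2 would leave a linker of 13 bp. In both beta subunit genes the +1 dyad was at an ordinary distance from the TSS, 68 bp in PUP3 and 80 bp in PRE2, whereas the −1 dyad was only 52 and 80 bp upstream of it. The 100 bp before the TSS of PUP3 are shown because they contain this −1 dyad beside the PACE, with the motif in capitals.
PUP3 (chrV:349458-349557, minus strand): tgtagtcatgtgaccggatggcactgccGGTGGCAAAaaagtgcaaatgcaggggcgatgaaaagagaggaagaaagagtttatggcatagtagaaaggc

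From TSS to +1 dyad the median distance was 56 bp in members (quartiles 49 and 65 bp) and 54 bp in 4493 other ORFs (quartiles 40 and 72 bp). Within the quartiles of the other ORFs were 28 of 35 members and 16 of 17 regulatory genes, where 51.4% of the other ORFs lay by construction. The regulatory genes ranged from 40 bp in RPT5 to 73 bp in RPN3 (SD 9.33 bp), and the core genes from 2 to 142 bp (SD 30.6 bp). From −1 dyad to TSS it was 222 bp in members (quartiles 204.5 and 256.5 bp) and 210 bp in other ORFs (quartiles 158 and 248 bp). Only PUP3, PRE2 and PRE10 had it nearer than the lower quartile of the other ORFs.

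The +1 dyad lay 369 bp downstream of the TSS in RPN4, 142 bp in PRE10 and 91 bp in PRE8, and nearest to it in PRE7 with 2 bp, ECM29 with 23 bp, and RPT5 and UMP1 with 40 bp each. In the second column the values were 59 bp in RPN4, 24 bp in PRE10, 72 bp in PRE8, 94 bp in PRE7, 35 bp in ECM29, 39 bp in RPT5 and 68 bp in UMP1. The columns were within 20 bp of each other for 28 members and over 50 bp apart for RPN4, PRE10 and PRE7 only. With the second column no member lay outside 24 to 94 bp, and the median was 56 bp again, beside 50 bp in other ORFs. Against SDs of 9.33 and 30.6 bp in the first column, regulatory and core genes had 12.5 and 17.3 bp in the second. NDR length in that column had a median of 276 bp in members and 261 bp in other ORFs.

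**Figure D4:**
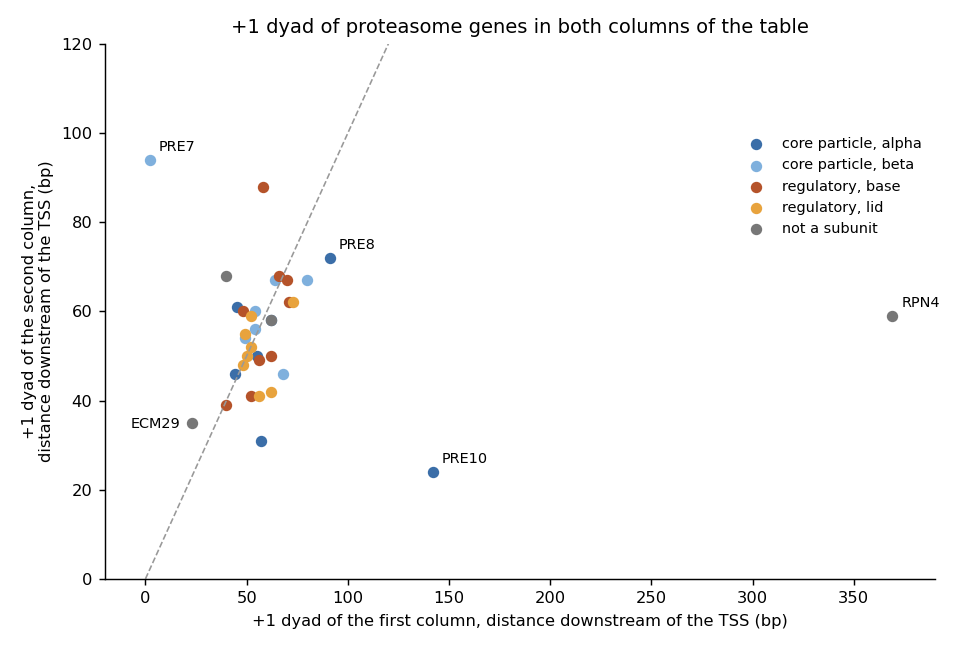
Distance of the +1 dyad downstream of the TSS (bp) in the first column of the table, on the horizontal axis, against that in the second column, on the vertical axis, for the 35 members, with the dashed line marking equal values. RPN4, PRE10 and PRE7 lie away from the line at 369, 142 and 2 bp in the first column and 59, 24 and 94 bp in the second.

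RPN4 stood apart from the genes it activates. Its NDR of 695 bp was among the 3 longest of 4485 ORF rows, and its +1 dyad among the 7 farthest from the TSS of 4528, but with the second column its NDR was 385 bp. In the 500 bp upstream of its TSS it had no PACE, no GGTGGC and no TTACCC. It had the motif TTACTAA of the stress activator Yap1 once, with its centre 119 bp upstream of the TSS, and TCCGTGGA, a motif of the drug resistance activators Pdr1 and Pdr3, at 143.5 and 186.5 bp. No other member had TCCGTGGA in these 500 bp, and 1.2% of the other ORFs did, whereas 6 of 35 members and 11.3% of the other ORFs had TTACTAA. The stretch of 100 bp that starts 200 bp upstream of its TSS is shown because it holds all 3 motifs, which are in capitals, the second as its reverse complement TCCACGGA.
RPN4 (chrIV:417061-417160, minus strand): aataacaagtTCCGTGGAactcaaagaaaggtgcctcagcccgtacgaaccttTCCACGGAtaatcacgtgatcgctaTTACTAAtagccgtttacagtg

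The other genes that encode no subunit resembled the subunit genes in their nucleosomes. RPN14 had an NDR of 259 bp with the +1 dyad 62 bp downstream and the −1 dyad 197 bp upstream of the TSS. The values were 261, 40 and 221 bp for the core chaperone gene UMP1, and 285, 23 and 262 bp for ECM29. UMP1 had a TTACCC at 125.5 bp and no PACE, and RPN14 had neither motif. RPT1, outside the list by its joint name, had an NDR of 288 bp, the +1 dyad 57 bp downstream of the TSS, an exact PACE at 129 bp and a TTACCC at 175.5 bp from the +1 dyad. Its NDR length, +1 distance and PACE distance lay within the ranges of RPT2 to RPT6.

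The +1 dyad was at or past the start codon in 16 of 35 members (45.7%, 95% Wilson interval 30.5 to 61.8%), beside 44.0% of other ORFs. The counts were 3 of 14 core genes (Wilson interval 7.57 to 47.6%) and 9 of 17 regulatory genes (31.0 to 73.8%), with intervals that overlap. The distance from TSS to start codon had a median of 74 bp in core genes and 54 bp in regulatory genes. RPN4 had its +1 dyad 117 bp inside the coding sequence, RPN14 39 bp and RPN10 30 bp. RPN8 and RPN7, with start codons 125 and 114 bp from the TSS, had it 76 and 58 bp before the start codon.

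Many of these promoters are shared with a neighbor, but in each count over all 35 members the background share lies within the Wilson interval. The upstream gene was divergent in 22 of 35 members (Wilson interval 46.3 to 76.8%), beside 52.0% of other ORFs. The −1 dyad lay inside another annotated gene in 12 of 35 (20.8 to 50.8%), beside 29.5%. In 12 of 35 (20.8 to 50.8%) the −1 dyad was also the +1 dyad of a transcript on the other strand, beside 25.8%. These were 3 of 14 core genes (7.57 to 47.6%), 8 of 17 regulatory genes (26.2 to 69.0%) and UMP1. The regulatory interval lies just above the background share, and it overlaps that of the core genes. The partners were TGL3 for PRE5, YGL010W for SCL1, GCD1 for RPT4, ALG13 for RPT6, YPI1 for RPN11, NOP14 for RPN5, PMT1 for RPN6, YTH1 for RPN7 and SWD3 for UMP1, and for PRE1 the noncoding transcript SUT508. For RPN10 it was the joint row of FMP34 and an overlapping ORF, and for RPN13 it was YLR422W. In these 12 pairs the −1 dyad of each gene is the +1 dyad of the other, so that both genes of a pair have 1 and the same NDR length. The gap to the upstream gene had a median of 383 bp in members and 420.5 bp in other ORFs.

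Homopolymer runs, which stiffen DNA and are frequent in yeast NDRs, were absent from a larger share of these promoters than of the background. No run of at least 6 A or 6 T on the coding strand was found between the dyads of 17 of 35 members, beside 31.7% of other ORFs. This background share lies just below the Wilson interval of the members. Such runs were missing in 11 of 17 regulatory genes (64.7%, Wilson interval 41.3 to 82.7%). They were missing in 5 of 14 core genes (35.7%, Wilson interval 16.3 to 61.2%), close to the background. The intervals of regulatory and core genes overlap, so the counts do not separate these groups. Runs of T were present in 8 members, against 44.1% of other ORFs, and runs of A in 11, against 44.8%. No intervals were made for runs of T or of A taken alone. The most bases in such runs were 24 A in PRE5 and 22 A in RPN6, followed by 19 T in RPN4.

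The DNA rigidity score gives each base the length, at least 2 bp, of the longest run it belongs to in which no T precedes an A and no G or C occurs. In a window of 21 bp centred 100 bp upstream of the +1 dyad, its mean had a median of 1.57 bp in members. In other ORFs the median was 1.90 bp, which divides them evenly by construction, and 25 of 35 members were below it. The medians were 1.476 bp in the alpha ring, 1.571 bp in the base and 1.405 bp in the lid. The beta ring, at 2.381 bp, was above the other ORFs. The PACE letters overlapped this window in 10 members, and the median of the other 25 was also 1.57 bp. Closer to the nucleosome, 55 bp upstream of the +1 dyad, the medians were 1.33 and 1.43 bp. GC content between the dyads was 36.3% in members and 35.5% in other ORFs as medians. Between the cores it was 36.6% in 33 members and 33.3% in other ORFs, and 35.7% in members when the bases of PACE were left out.

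**Figure D5:**
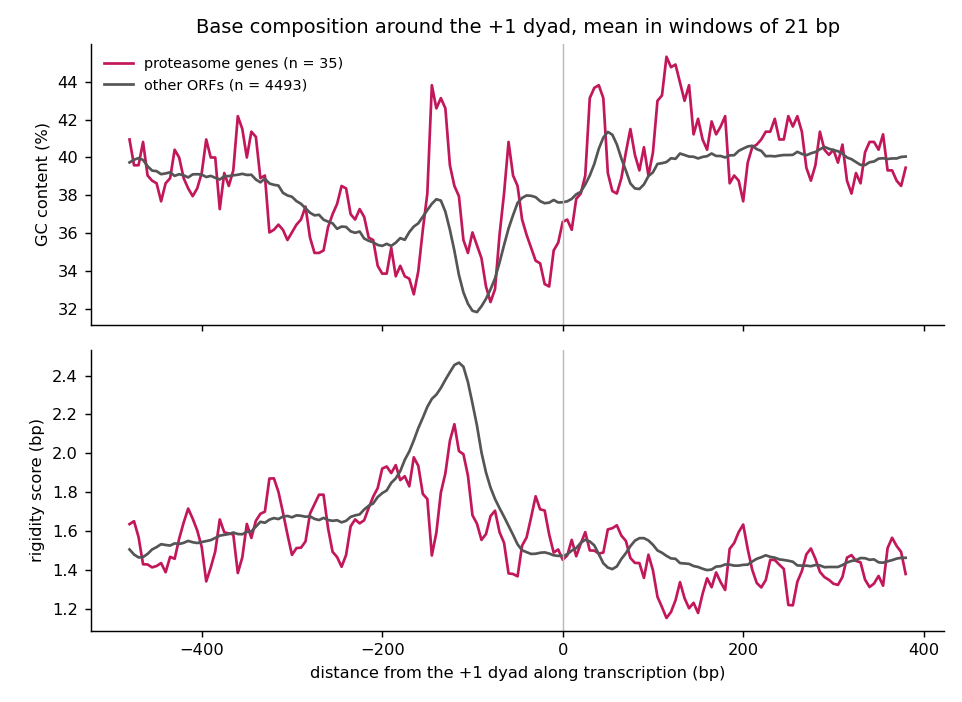
Mean GC content (%, upper panel) and mean rigidity score (bp, lower panel) in windows of 21 bp against the distance from the +1 dyad (bp), for the 35 members and 4493 other ORFs. The rigidity of the members stays below that of the other ORFs 100 bp upstream of the dyad, at 1.68 against 2.26 bp, and the curve of the members is rougher because it averages few genes.

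The study cut its plasmid library with restriction enzymes to create DNA ends, and few of their sites fell in these NDRs. EcoRV had a site in the NDRs of SCL1 and PRE9, 2 of 35 members, and in 6.76% of those of other ORFs. BamHI and KpnI had none in the members and were in 1.75% and 2.29% of the other NDRs.

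A further 24 genes of assembly, ubiquitin supply and substrate delivery that are not members were listed with earlier results of these data known. Their shares are therefore no independent finding of an enrichment. Of these 24 genes, 4 had an exact PACE, beside 1.02% of the other ORFs, which include them. They were UBI4, the polyubiquitin gene, with the motif centre 107 bp from the +1 dyad, UBA1, the ubiquitin-activating enzyme gene, at 125 bp, CDC48, the gene of the segregase that extracts ubiquitinated proteins, at 132 bp, and CUZ1, at 104 bp. All 4 distances fall in the range of the members. At most 1 mismatch was met by 13 of 24, beside 9.68%, and a TTACCC was present in 10, beside 22.5%. Of the 9 genes with a near match only, 3 had it within the 86 to 139 bp of the members, and the 9 together ranged from 32 to 332 bp. The NDR length of the 24 had a median of 262.5 bp (quartiles 232.8 and 293.2 bp), close to the other ORFs. UBA1 and CDC48 had short NDRs of 120 and 158 bp, whereas those of CUZ1 and UBI4 were 311 and 347 bp. SEM1, the lid subunit outside the name rule, had an NDR of 211 bp with the +1 dyad 32 bp downstream and the −1 dyad 179 bp upstream of the TSS, and a near match to PACE at 111 bp.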

How the data were processed

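The authors mapped single-end MNase-seq reads of 1 in vivo library to SacCer3 with Bowtie, discarding reads with several matches, placed a dyad at a fixed offset from each read end, applied a Gaussian filter and picked peaks in order of height with a minimum spacing. By their methods the +1 dyad is the peak closest to an annotated TSS on its downstream side and the −1 dyad the next one upstream. The deposited values are coordinates and lengths in bp, and this smoothing and spacing limit how finely dyads can be placed. The deposited NDR length equals the distance from −1 dyad to the first +1 column in all 4903 rows that have one. The second +1 column, of unknown origin, has 4947 of 4949 values ending in the digit 1, so it lies on a grid. A further 6 columns were not used.

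Distances, medians, quartiles and shares were computed along the direction of transcription with Python 3.11.15, pandas 2.3.3, numpy 2.4.6 and scipy 1.17.1, and figures were drawn with matplotlib 3.10.9. Shares carry 95% Wilson intervals, which cover counting error only. Sequences, start codons and neighbors came from RefSeq's R64 assembly, the build that SacCer3 denotes, matched by systematic name, and all 35 members matched. Motif search and rigidity score were tested on simulated sequence. Promoters with an exact PACE are shown by their site, and named in full are the 3 longest and shortest NDRs, the 3 farthest and nearest +1 dyads, and the 4 genes that encode no subunit. The members, lists, motifs and tests were chosen with earlier results of these data known. No tests between groups were made, since 1 library gives no replicates.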

Additional observations from a re-analysis of the deposited data

How the results depend on the processing

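For 9 results, 36 alternatives gave a value, and 35 of these lay within the 95% interval of the value reported. The exception was the share of members with a PACE, 88.6% with at most 1 mismatch against 74.3% for the exact motif. This count is a weak check, because most alternatives reuse the same genes and the intervals are wide. Counting every motif could change nothing, since each member with an exact PACE has 1. The beta ring alone, at 247 bp, lay on the bound of the core interval, 247 to 392 bp. The alternatives were subunits only, NDRs above 0 and at most 500 bp, each ring, base or lid alone, looser or nearer motifs and the second +1 column. Added after seeing the data were the inclusion of RPT1, the windows upstream of the TSS or start codon, the omission of PRE10 and of PACE bases. The second column gave a median PACE distance of 116 bp and a start codon share of 31.4%, and it put the PACE of PRE10 11 bp downstream of its +1 dyad. No paired analysis was possible because all dyads come from 1 library and no result rests on a test. Depth and peak height behind each dyad are unknown, so a single odd position, as in RPN4, PRE7 or PUP3, has no error attached to it.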

Other observations

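Of the 46 other ORFs with an exact PACE, 12 had its centre within the 86 to 139 bp that the members span, a range read from the members' own values. Beside RPT1, CUZ1, UBI4, UBA1 and CDC48 these were PIM1, the gene of the mitochondrial Lon protease, at 99 bp, AHC2 at 111 bp, EPL1 at 126 bp, TMC1 and NAB2 at 135 bp, GSF2 at 137 bp and PRD1 at 139 bp. The NDR lengths of these last 7 ran from 178 bp in TMC1 to 413 bp in EPL1. None of the 12 sites was also a site of a member.

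The base that follows the motif on its own strand was A in 17, T in 8 and C in 1 of the 26 members with an exact PACE, and in none was it G. The base before it was C in 13, A in 6, G in 5 and T in 2. The genes were chosen by name and the flanks were read after the motif had been located, so these counts describe the printed sites.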
